A study of Mus musculus with 9 samples.

Results

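The genes of the heart's calcium/calmodulin and diacylglycerol kinases comprise 10 genes here, chosen by name from the 43154 genes listed for each heart. They are the 4 CaMKII genes Camk2a, Camk2b, Camk2d and Camk2g, the CaM kinase I gene Camk1, the protein kinase C (PKC) genes Prkca, Prkcd and Prkce, and the protein kinase D (PKD) genes Prkd1 and Prkd2. Each has 1 line in every file, and all 10 reached the level needed for testing, which was 1 FPKM in at least 2 of the 9 hearts. FPKM is the number of fragments divided by transcript length and by the mapped total, so that levels of different genes can be set side by side.

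Messenger RNA had been sequenced from whole hearts of C57BL/6 mice in 3 groups. JIB-04 hearts (2 mice, 1 at day 158 and 1 at day 125) carried a calcineurin A transgene under the MHC promoter, which is active in cardiomyocytes, and came from mice dosed with JIB-04, an inhibitor of Jumonji histone demethylases. Dosing began at 4 weeks of age, with 50 mg/kg at each of 3 treatments a week. Transgenic vehicle hearts (3 mice, 2 at day 158 and 1 at day 125) carried the same transgene and received vehicle on that schedule. Wild type hearts (4 mice, 2 at each day) received vehicle. Days are ages after birth as labelled for each heart. The series description has treatment running to day 158 of age, which does not match the 4 hearts labelled day 125, and when dosing of those mice ended is not given in the sources used here. With no wild type hearts on JIB-04 analysed here, an effect of the compound outside the transgenic background was not tested.

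Calcium that binds calmodulin switches on calcineurin, a phosphatase, and also the CaM kinases, so both arms read the same calcium signal. CaMKII is a multimer of subunits from several genes and phosphorylates calcium channels, phospholamban and class II histone deacetylases in heart muscle. PKC isoforms are switched on downstream of Gq-coupled receptors through phospholipase C and diacylglycerol, and some of them in turn phosphorylate PKD, which also acts on class II histone deacetylases.

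The transgene was visible in every transgenic heart. Ppp3ca, which encodes calcineurin A α, was at 1536 and 1434 FPKM in JIB-04 hearts and at 1762, 1706 and 199 FPKM in transgenic vehicle hearts, against 22.9 to 24.8 FPKM in wild type hearts. Transgenic vehicle heart 3 was thus lower than the other transgenic hearts. The 7 cardiomyocyte markers were all detected in all hearts. Their summed levels were 11212 to 12716 FPKM in JIB-04 hearts, 11880 to 13266 in transgenic vehicle hearts and 15402 to 18010 in wild type hearts. Among them, Myh6 was at 705 FPKM in transgenic vehicle heart 3 and at 1755 to 2220 in the other transgenic hearts. In wild type hearts Myh6 was at 2936 to 3365 FPKM. Steps between low values put the relative depth of the hearts at 1.0 to 1.5. The mitochondrial share of the summed FPKM reached 30.9%. In JIB-04 heart 2 and transgenic vehicle heart 3 the mitochondrial genes mt-Atp6, mt-Co3 and mt-Atp8 had high levels, and in the other 7 hearts they are listed at 0.

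Transgenic vehicle hearts differed from wild type hearts in 6 of the 10 kinase genes. Camk2a, Camk1, Prkd1, Prkd2 and Prkce fell, and Prkca rose, by limma at a Benjamini-Hochberg adjusted p under 0.05 over all 13487 genes tested. The test called 36.0% of all genes in this comparison, 20.3% higher and 15.7% lower. The median difference of the 10 members was -0.28 on the log2(FPKM + 1) scale, against 0.05 over all genes tested. That scale understates changes of genes at low levels. Without JIB-04 heart 2 and transgenic vehicle heart 3, 5 of the 10 members were called, as Prkce was lost (-0.26, adjusted p = 0.060), and 4727 of 13318 genes were called, against 4862 of 13487 with all hearts. None of the 10 passed the test between JIB-04 and transgenic vehicle hearts.

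**Figure D1:**
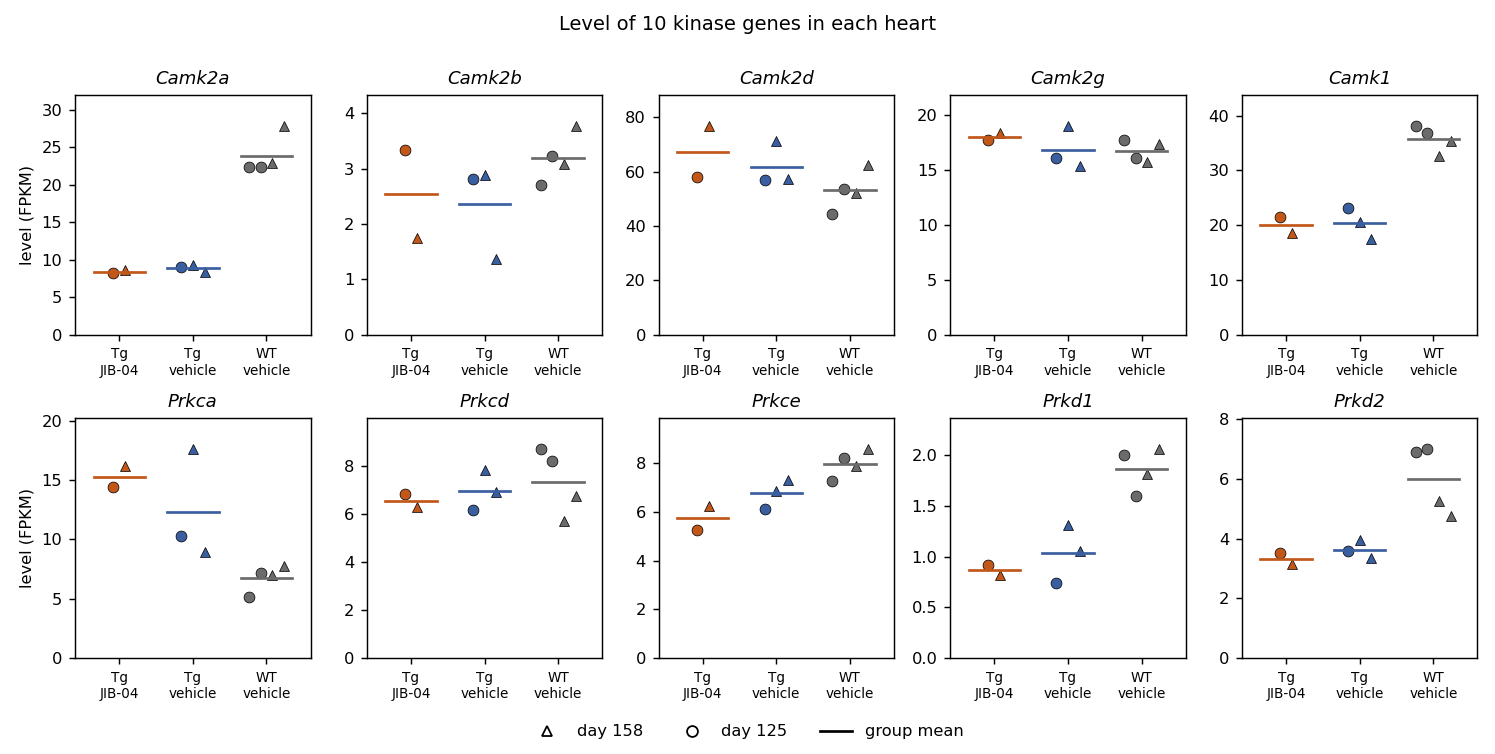
Level (FPKM, linear axis from 0) of the 10 kinase genes in each of the 9 hearts, with JIB-04, transgenic vehicle and wild type vehicle hearts from left to right in each panel. Triangles are day 158 hearts, circles day 125 hearts and bars group means. For Camk2a all 5 transgenic hearts lie between 8.18 and 9.25 FPKM, below the 4 wild type hearts at 22.3 to 27.8.

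Camk2a encodes the CaMKII α subunit, best known from neurons. It was at 8.18 and 8.65 FPKM in JIB-04 hearts and at 8.99, 9.25 and 8.35 FPKM in transgenic vehicle hearts, against 22.4, 22.3, 22.9 and 27.8 FPKM in wild type hearts. The transgenic hearts lay close together and none reached the lowest wild type heart. Its mean was 8.86 ± 0.462 FPKM in transgenic vehicle hearts (SD, n = 3), against 23.8 ± 2.66 FPKM in wild type hearts (SD, n = 4), a level 37.2% of that in wild type. Camk2a fell by 1.34 on the log2(FPKM + 1) scale (SE 0.09, limma adjusted p = 3.5e-05), which ranks 473 by size of change among the 13487 genes. The difference ran from -1.43 to -1.13 over 25 alternatives of processing and passed the threshold in each. The gene lies on chromosome 18, positions 60925618 to 60988152 in GRCm38, on the plus strand.

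Camk2d, the main CaMKII gene of heart muscle, was the highest of the 10 genes in every group. Its level was 58.0 and 76.8 FPKM in JIB-04 hearts and 56.9, 71.5 and 57.3 FPKM in transgenic vehicle hearts, against 44.6, 53.6, 52.3 and 62.6 FPKM in wild type hearts. Both transgenic groups overlapped the wild type hearts. The difference of transgenic vehicle from wild type hearts was 0.17 (95% interval -0.09 to 0.43, adjusted p = 0.27), and that of JIB-04 from wild type hearts was 0.33 (0.04 to 0.62, adjusted p = 0.083). The last of these passed the threshold in 3 of 25 alternatives, among them the fit without transgenic vehicle heart 3 (0.33, adjusted p = 0.041). Camk2d spans positions 126596302 to 126844913 of chromosome 3.

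Camk2g, the γ subunit gene, which is also expressed in heart muscle, had nearly the same level in all groups. It was at 17.7 and 18.4 FPKM in JIB-04 hearts and 16.1, 19.0 and 15.4 FPKM in transgenic vehicle hearts, against 17.7, 16.1, 15.7 and 17.4 FPKM in wild type hearts. The transgenic vehicle hearts spanned the wild type hearts on both sides. The difference of transgenic vehicle from wild type was 0.00, with a 95% interval from -0.21 to 0.21. Camk2b, the β subunit gene and the lowest of the CaMKII genes, was at 3.33 and 1.74 FPKM in JIB-04 hearts and 2.82, 2.88 and 1.37 FPKM in transgenic vehicle hearts, against 2.71, 3.23, 3.08 and 3.77 FPKM in wild type hearts. The groups overlapped, and the lowest hearts were JIB-04 heart 2 and transgenic vehicle heart 3, both from day 158. Its difference of transgenic vehicle from wild type was -0.32 (-0.81 to 0.17, adjusted p = 0.28).

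The 4 CaMKII genes summed to 96.4 ± 12.9 FPKM in JIB-04 hearts (SD, n = 2), 89.9 ± 11 in transgenic vehicle hearts (SD, n = 3) and 97.1 ± 10.3 in wild type hearts (SD, n = 4). These sums overlapped between all groups, while the makeup differed. Camk2a gave 8.20% and 9.38% of the sum in JIB-04 hearts and 9.01% to 10.6% in transgenic vehicle hearts, against 23.4% to 25.6% in wild type hearts. Camk2d gave 66.5% and 72.8% in JIB-04 hearts and 67.0% to 69.7% in transgenic vehicle hearts, against 51.0% to 56.3% in wild type hearts. Neither share overlapped between transgenic and wild type hearts. A share within a heart does not depend on how hearts are scaled to each other. It is a description and was not tested, and a lower share of one subunit gene raises the shares of the others. Camk2g gave a mean of 18.9% in JIB-04 hearts, 18.7% in transgenic vehicle hearts and 17.4% in wild type hearts.

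**Figure D2:**
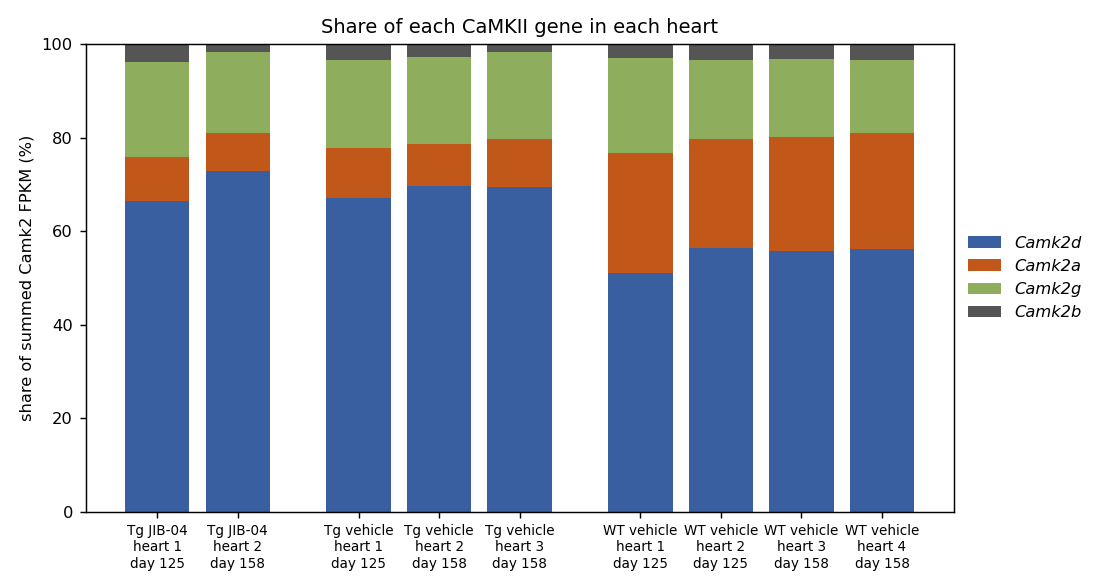
Share (%) of each CaMKII gene in the summed FPKM of the 4 genes, 1 bar per heart, with JIB-04, transgenic vehicle and wild type hearts from left to right. The Camk2a segment takes 8.20% to 10.6% in the 5 transgenic hearts and 23.4% to 25.6% in the 4 wild type hearts.

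Camk1 encodes CaM kinase I, a monomeric kinase that the CaM kinase kinases Camkk1 and Camkk2 switch on. The 300 bases around its start in RefSeq are shown (GRCm38.p6, chr6:113343873-113344172, minus strand, 250 before the start and 50 after it). Camk1 was chosen for the second largest fall of the 10 on the log2(FPKM + 1) scale. In mean FPKM of transgenic vehicle hearts, Prkd1 was at 55.4% of wild type and Camk1 at 56.9%. The capitals mark the letters TGACG, the core of the site bound by CREB, a transcription factor that CaM kinases phosphorylate.
Camk1: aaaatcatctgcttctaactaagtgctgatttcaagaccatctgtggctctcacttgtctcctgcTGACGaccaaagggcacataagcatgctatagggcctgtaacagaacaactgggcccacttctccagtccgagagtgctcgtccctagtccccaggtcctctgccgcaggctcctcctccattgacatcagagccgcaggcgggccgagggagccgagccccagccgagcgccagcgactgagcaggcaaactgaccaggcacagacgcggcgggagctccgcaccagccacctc
The match lies 185 bases before the start on the gene's own strand. TGACG occurred on either strand in 20.8% of 32851 RefSeq promoters of the same length, and the full site TGACGTCA in 1.79%. A match to letters is a description of the sequence only.

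Camk1 was at 21.5 and 18.5 FPKM in JIB-04 hearts and at 23.1, 20.5 and 17.4 FPKM in transgenic vehicle hearts, against 38.1, 36.9, 32.6 and 35.4 FPKM in wild type hearts. Every transgenic heart was below every wild type heart. Camk1 averaged 20.3 ± 2.87 FPKM in transgenic vehicle hearts (SD, n = 3), against 35.7 ± 2.37 FPKM in wild type hearts (SD, n = 4), and fell by 0.76 on the log2 scale (SE 0.08, limma adjusted p = 3.0e-04). The call held in all 25 alternatives, with differences from -0.82 to -0.54. Camk1 lies on chromosome 6, positions 113334124 to 113343984, and 232 of its 5975 exon bases overlap exons of Ogg1 on the opposite strand. The library kit does not keep strand, so reads there cannot be told apart. Ogg1, a DNA repair gene, was at 6.08 and 4.60 FPKM in JIB-04 hearts and 4.47 to 6.87 FPKM in transgenic vehicle hearts, against 3.95 to 5.35 FPKM in wild type hearts.

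Prkca encodes PKCα, the conventional isoform that needs both calcium and diacylglycerol and is known to depress contractility in mouse heart. It was the only one of the 10 called higher in transgenic vehicle hearts. Its level was 14.4 and 16.2 FPKM in JIB-04 hearts and 10.3, 17.6 and 8.98 FPKM in transgenic vehicle hearts, against 5.16, 7.15, 7.01 and 7.80 FPKM in wild type hearts. All 5 transgenic hearts were above the highest wild type heart, with a wide spread in the vehicle group set by heart 2. Prkca averaged 12.3 ± 4.65 FPKM in transgenic vehicle hearts (SD, n = 3), against 6.78 ± 1.13 FPKM in wild type hearts (SD, n = 4), and rose by 0.69 on the log2 scale (SE 0.20, limma adjusted p = 0.029).

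This rise passed the threshold in 18 of 25 alternatives. It missed it without transgenic vehicle heart 1 (0.71, adjusted p = 0.096), wild type heart 1 (0.62, adjusted p = 0.067), wild type heart 3 (0.66, adjusted p = 0.079) or wild type heart 4 (0.72, adjusted p = 0.061). It also missed it with no filter on low genes (0.69, adjusted p = 0.088) and with the hearts of 1 day only. The difference was above 0 in each of the 25, from 0.46 to 0.91. Prkca spans positions 107933387 to 108343928 of chromosome 11, and 30 of its 8992 exon bases overlap Apoh, a gene on the opposite strand. Apoh was at 0.522 and 1.16 FPKM in JIB-04 hearts and 0.133 to 1.27 FPKM in transgenic vehicle hearts, against 0.0703 to 0.143 FPKM in wild type hearts. The promoter window of Prkca in RefSeq (GRCm38.p6, chr11:108343839-108344138, minus strand) is shown beside that of Camk1, as the one member called higher. It holds neither GGAAA, the core letters bound by NFAT, the calcineurin-activated transcription factor, nor TGACG, on either strand, and so carries no capitals.
Prkca: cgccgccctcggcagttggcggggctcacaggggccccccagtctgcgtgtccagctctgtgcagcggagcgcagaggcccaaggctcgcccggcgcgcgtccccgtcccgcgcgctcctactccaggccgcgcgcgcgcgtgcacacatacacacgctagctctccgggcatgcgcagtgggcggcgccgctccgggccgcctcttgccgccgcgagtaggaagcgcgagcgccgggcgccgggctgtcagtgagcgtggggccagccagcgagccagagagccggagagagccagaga
GGAAA occurred in 61.3% of the 32851 promoters. That these letters are not in this window says nothing of the factor.

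A further class of PKC isoforms needs diacylglycerol but no calcium. Prkce, the gene of PKCε, known in mouse heart for its part in protection from ischaemia, was at 5.28 and 6.23 FPKM in JIB-04 hearts and at 6.13, 6.85 and 7.30 FPKM in transgenic vehicle hearts, against 7.26, 8.23, 7.90 and 8.57 FPKM in wild type hearts. Transgenic vehicle heart 3 just overlapped wild type heart 1, and the JIB-04 hearts lay below all wild type hearts. Prkce fell by 0.24 on the log2 scale in transgenic vehicle hearts (SE 0.08, limma adjusted p = 0.046). The call was lost in 17 of 25 alternatives, among them the omission of any 1 heart other than transgenic vehicle heart 3 (adjusted p from 0.057 to 0.17) and scaling to equal totals (-0.04, adjusted p = 0.78). A transcript annotated in AC154542.1, not analysed here, overlaps 472 of the 7261 exon bases of Prkce on the same strand (chromosome 17, positions 86167785 to 86657919).

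Prkcd, the gene of PKCδ, was at 6.83 and 6.29 FPKM in JIB-04 hearts and 6.15, 7.83 and 6.92 FPKM in transgenic vehicle hearts, against 8.69, 8.22, 5.69 and 6.77 FPKM in wild type hearts. The wild type hearts of day 125 were the highest of all, and the groups overlapped. Its difference of transgenic vehicle from wild type was -0.04 (95% interval -0.34 to 0.27, adjusted p = 0.86). Within the 3 PKC members, Prkca gave 54.4% and 56.4% of the summed FPKM in JIB-04 hearts and 38.7% to 54.5% in transgenic vehicle hearts, against 24.4% to 34.0% in wild type hearts. Prkca was thus the largest of the 3 on average in both transgenic groups, while Prkce was the largest in wild type hearts, at a mean of 36.2%.

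PKD kinases act downstream of PKC. Prkd2 encodes PKD2, and the 300 bases around its first RefSeq start (GRCm38.p6, chr7:16842652-16842951, plus strand) are shown as a second member that fell. The capitals mark 2 matches to GGAAA, one on each strand, 149 and 127 bases before the start.
Prkd2: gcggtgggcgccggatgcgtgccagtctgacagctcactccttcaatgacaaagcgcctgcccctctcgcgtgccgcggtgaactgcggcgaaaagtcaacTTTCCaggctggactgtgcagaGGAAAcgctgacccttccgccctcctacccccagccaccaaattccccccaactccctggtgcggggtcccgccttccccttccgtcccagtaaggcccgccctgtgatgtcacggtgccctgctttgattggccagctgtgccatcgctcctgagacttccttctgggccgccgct
Of the 7 members with a promoter in the RefSeq table, 3 hold GGAAA (Camk2d, Prkd1 and Prkd2) and 1 holds TGACG. None holds TGACGTCA or a MEF2 site, which 3.19% of all promoters hold. Camk2a, Camk2g and Prkce have no entry in it.

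Prkd2 was at 3.51 and 3.14 FPKM in JIB-04 hearts and at 3.60, 3.96 and 3.34 FPKM in transgenic vehicle hearts, against 6.92, 6.99, 5.27 and 4.75 FPKM in wild type hearts. No transgenic heart reached a wild type heart, and the wild type hearts of day 125 were above those of day 158. Prkd2 fell by 0.54 on the log2 scale in transgenic vehicle hearts (SE 0.11, limma adjusted p = 0.0064), a call that held in 24 of 25 alternatives. The exception used day 158 hearts alone (-0.37, adjusted p = 0.17). Prkd2 lies on chromosome 7, positions 16842902 to 16870461.

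Prkd1 encodes PKD1, a kinase of class II histone deacetylases in mouse heart, and was the lowest of the 10. It was at 0.923 and 0.819 FPKM in JIB-04 hearts and at 0.744, 1.31 and 1.06 FPKM in transgenic vehicle hearts, against 2.0, 1.60, 1.82 and 2.06 FPKM in wild type hearts. Transgenic and wild type hearts did not overlap, and 6 of 9 hearts reached 1 FPKM, none of them JIB-04 hearts. Prkd1 fell by 0.52 on the log2 scale in transgenic vehicle hearts (SE 0.12, limma adjusted p = 0.012). It missed the threshold without transgenic vehicle heart 1 (-0.40, adjusted p = 0.081), with the replicate number as a block (-0.47, adjusted p = 0.065) and on either day alone, of 24 alternatives that gave a value. The 2 PKD genes together summed to 4.20 ± 0.334 FPKM in JIB-04 hearts (SD, n = 2), 4.67 ± 0.514 in transgenic vehicle hearts (SD, n = 3) and 7.85 ± 1.06 in wild type hearts (SD, n = 4).

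Across the 10, 5 had transgenic vehicle and wild type hearts that did not overlap, 1 higher and 4 lower. The share of all tested genes without overlap was 41.2%, with 23.4% higher and 17.7% lower. The order of levels was Camk2d, Camk1, Camk2a, Camk2g, Prkce, Prkcd, Prkca, Prkd2, Camk2b and Prkd1 in wild type hearts, where the ranges of neighbours overlapped from Prkce to Prkd2. In transgenic vehicle hearts it was Camk2d, Camk1, Camk2g, Prkca, Camk2a, Prkcd, Prkce, Prkd2, Camk2b and Prkd1. There, neighbours overlapped from Camk1 to Camk2a and between Prkcd and Prkce. JIB-04 hearts had that same order, with an overlap of neighbours only between Prkd2 and Camk2b, over 2 hearts.

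The series asks whether JIB-04 alters the transcriptome of the transgenic heart. None of the 10 kinase genes passed the test between JIB-04 and transgenic vehicle hearts by limma (each adjusted p = 0.99), and 0 had an unadjusted p under 0.05. Of all 13487 genes 1 was called, which is 0.00741%. No member had groups without overlap, against 12.4% of all genes, 5.55% higher and 6.88% lower. The point estimates ran from -0.18 for Prkce to 0.39 for Prkca. The intervals limit the size of a difference in the 2 and 3 hearts compared. They were narrowest for Prkce (-0.39 to 0.04), Camk1 (-0.27 to 0.17) and Camk2a (-0.30 to 0.19). They were widest for Camk2b (-0.54 to 0.63) and Prkca (-0.16 to 0.94). Each interval is a range of differences compatible with these hearts, so a difference inside it is not excluded.

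**Figure D3:**
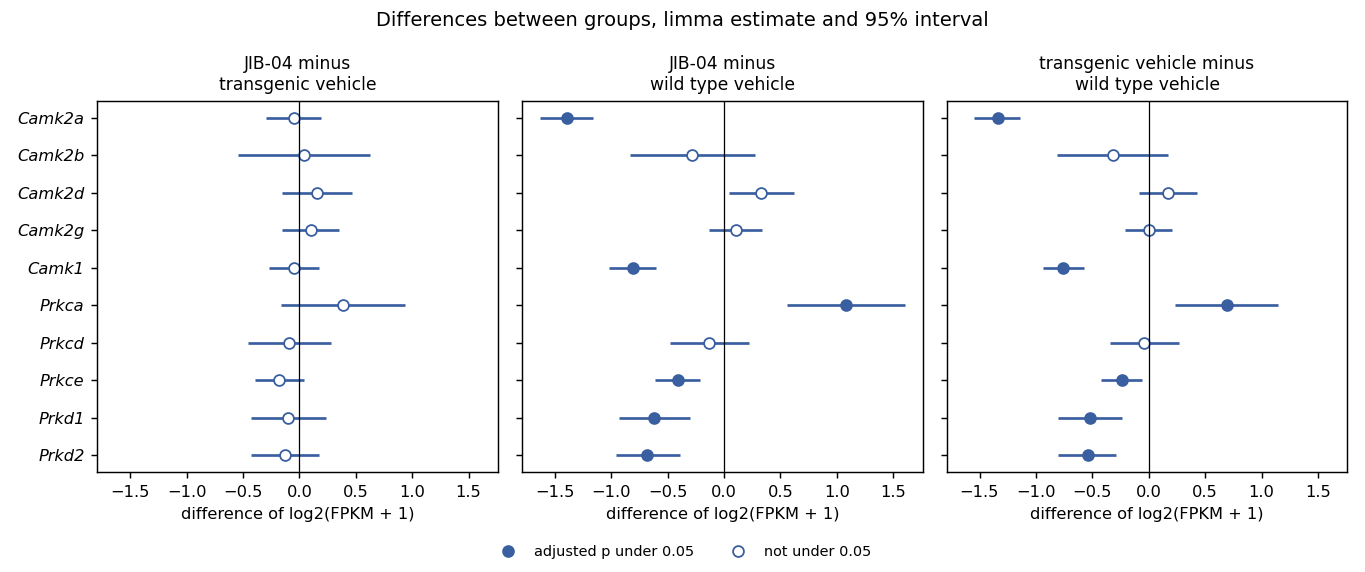
Difference of log2(FPKM + 1) with its 95% interval (limma, all 9 hearts) for the 10 genes, for JIB-04 minus transgenic vehicle, JIB-04 minus wild type and transgenic vehicle minus wild type from left to right. Filled points have an adjusted p under 0.05. In the left panel every interval includes 0. In the other panels Camk2a lies lowest, at -1.39 and -1.34.

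Against wild type hearts, JIB-04 hearts had 6 of the 10 genes called, Prkca higher and Camk2a, Camk1, Prkd1, Prkd2 and Prkce lower. This test called 32.3% of all genes, 17.4% higher and 14.8% lower. The 2 comparisons with wild type share the same 4 wild type hearts, so their values are set side by side only. Camk2a differed by -1.39 in JIB-04 hearts (SE 0.10, limma adjusted p = 6.4e-05) and by -1.34 in transgenic vehicle hearts. Camk1 differed by -0.81 in JIB-04 hearts (limma adjusted p = 4.7e-04) and by -0.76 in transgenic vehicle hearts. Prkca differed by 1.08 in JIB-04 hearts (limma adjusted p = 0.0084) and by 0.69 in transgenic vehicle hearts.

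The other falls in JIB-04 hearts were 0.68 for Prkd2 (-0.68, adjusted p = 0.0046), 0.62 for Prkd1 (-0.62, adjusted p = 0.011) and 0.41 for Prkce (-0.41, adjusted p = 0.0088), all by limma. With 1 JIB-04 heart left out, 3 members were still called, while the count over all genes dropped to 2186 without JIB-04 heart 1 and 1720 without JIB-04 heart 2, against 4354 with both. Without JIB-04 heart 1 these lost their call: Prkca (adjusted p = 0.078), Prkce (0.094) and Prkd2 (0.058). Without JIB-04 heart 2 these lost it: Prkca (adjusted p = 0.070), Prkce (0.063) and Prkd1 (0.14). The JIB-04 and wild type hearts did not overlap in 7 members, 2 higher and 5 lower, against 50.2% of all genes, 28.4% higher and 21.7% lower. The seventh gene is Camk2g, whose JIB-04 hearts sat at or just above the highest wild type heart.

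The transgenic difference was also taken within each day. Camk2a differed by -1.42 at day 158 (limma adjusted p = 0.0030) and by -1.22 at day 125. Camk1 differed by -0.81 at day 158 (adjusted p = 0.011) and by -0.67 at day 125. Both were called at day 158, with 2 hearts in each compared group, where 2252 of all 13487 genes were called. Day 125 held 1 transgenic vehicle heart, so only sizes are given for it. Prkca differed by 0.70 at day 158 and 0.67 at day 125, and Prkd1 by -0.43 at day 158 and -0.68 at day 125. Prkce differed by -0.19 at day 158 and -0.29 at day 125. Prkd2 differed by -0.37 at day 158 (adjusted p = 0.095) and by -0.79 at day 125. Prkca, Prkd1, Prkce and Prkd2 were not called at day 158.

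Between the days over all groups, none of the 10 was called by limma, where 0.378% of all genes were (0.156% higher and 0.222% lower), and 2 had an unadjusted p under 0.05. These were Camk1, at -0.20 for day 158 minus day 125 (adjusted p = 0.19), and Camk2d, at 0.25 (adjusted p = 0.24). The difference of the transgenic effect between the days was called for no member, and for 0.00741% of all genes. The largest was that of Prkcd, at 0.62 (95% interval 0.12 to 1.11, unadjusted p = 0.023, adjusted p = 1.0). Its transgenic difference was 0.21 at day 158 and -0.40 at day 125, and its level in wild type hearts was 6.23 FPKM at day 158 and 8.45 FPKM at day 125.

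Around the 10 genes, 81 other genes of the same pathways were listed by role, of which 71 passed the filter. Of these 71, 6 reached the filter's 1 FPKM in 2 or more hearts of one genotype only, which selects them for a difference, so their calls are not counted. In transgenic vehicle hearts 30 of the other 65 were called by limma (46.2%), 14 higher and 16 lower. Of all genes 36.0% were called, 20.3% higher and 15.7% lower, shares that still include genes so selected. The counts of each list below stand beside these shares. In JIB-04 against transgenic vehicle hearts none of the 71 was called. The lists were assembled with results of these data known and carry no test of their own.

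**Figure D4:**
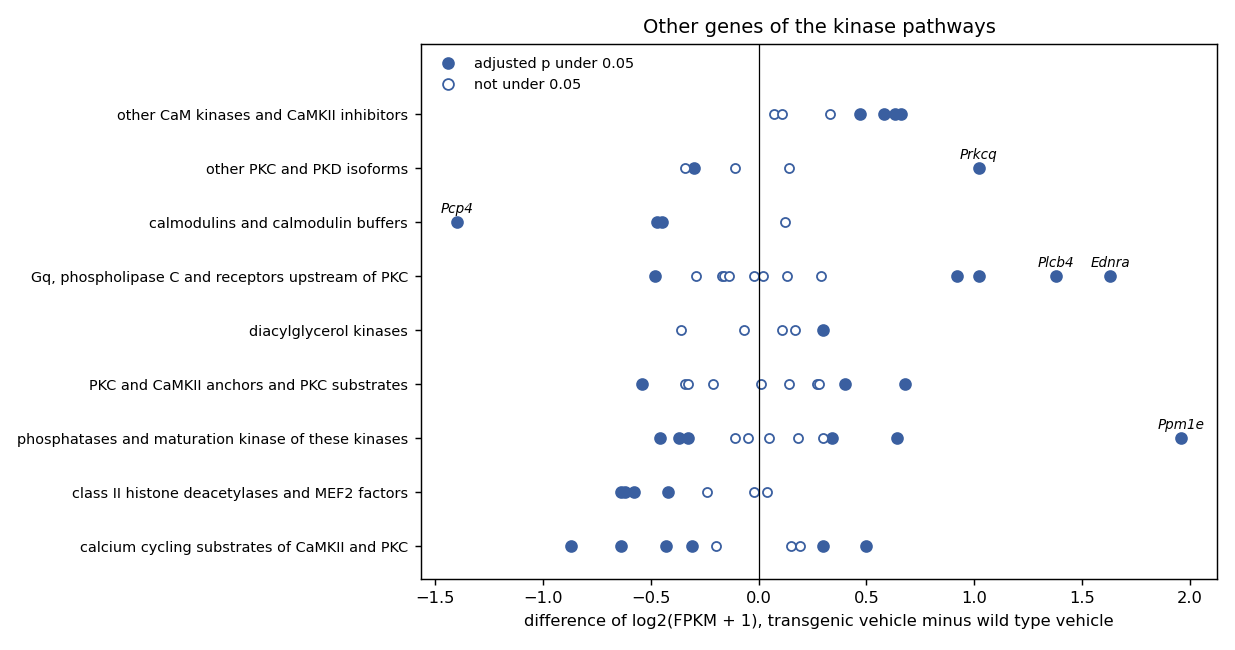
Difference of log2(FPKM + 1), transgenic vehicle minus wild type vehicle, of the 71 tested genes in 9 pathway lists (rows). Each point is 1 gene, and filled points have an adjusted p under 0.05. Ppm1e, at 1.96, is farthest to the right. Pcp4, at -1.40, is farthest to the left and is 1 of the 6 genes that passed the filter through one genotype, which are drawn like the rest.

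Upstream of PKC, 4 of 13 tested genes of receptors, Gq subunits and phospholipase C rose and 1 fell, with a median of 0.02. Of all genes, 20.3% were called higher and 15.7% lower. Ednra, the endothelin A receptor gene, averaged 44.0 ± 3.76 FPKM in the 3 transgenic vehicle hearts, against 13.4 ± 2.31 FPKM in the 4 wild type hearts (SD), and it rose by 1.63 (limma adjusted p = 6.0e-05). Plcb4, a phospholipase C β gene, was at 66.2 ± 5.57 FPKM in transgenic vehicle hearts and 24.9 ± 2.36 FPKM in wild type hearts, and rose by 1.38 (adjusted p = 1.1e-04). The receptor gene Adra1b fell by 0.48 (adjusted p = 0.014), while the genes of the Gq subunits, Gnaq at -0.14 and Gna11 at -0.16, were not called. The related receptor gene Adra1a went the other way, at 8.91 to 13.4 FPKM in transgenic vehicle hearts, against 4.49 to 5.21 in wild type hearts. Of 5 tested diacylglycerol kinase genes, whose products remove the PKC activator, Dgkd rose by 0.30 (adjusted p = 0.049), a call lost in 18 of 25 alternatives.

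Among 5 other tested PKC and PKD genes, Prkcq rose and Prkd3 fell. Of the remaining 3, none was called, and Prkcz passed the filter through wild type hearts alone. Prkcq, the gene of PKCθ, of the same class as PKCε, was at 4.84 ± 0.163 FPKM in JIB-04 hearts (SD, n = 2) and 5.40 ± 0.256 in transgenic vehicle hearts (SD, n = 3), against 2.19 ± 0.254 in wild type hearts (SD, n = 4). It rose by 1.02 in transgenic vehicle hearts (limma adjusted p = 1.4e-04), and the call held in all 25 alternatives. Prkd3, the remaining PKD gene, fell by 0.30 (limma adjusted p = 0.018) and lost its call in 7 of 25. Over 8 PKC genes, which are the 3 members with Prkcb, Prkch, Prkci, Prkcq and Prkcz, the summed level was 43.2 ± 1.55 FPKM in JIB-04 hearts, 43.0 ± 5.57 in transgenic vehicle hearts and 37.1 ± 1.80 in wild type hearts. Prkca and Prkcq held mean shares of 28.1% and 12.7% of that sum in transgenic vehicle hearts, against 18.2% and 5.91% in wild type hearts.

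Of 7 tested genes of other CaM kinases and CaMKII inhibitors, Camk1d, Camk1g, Camkk1 and Camk2n2 passed the filter through transgenic hearts alone, where they were higher, so their values are a description with no test. Camkk1, the CaM kinase kinase gene upstream of Camk1, averaged 1.61 ± 0.0860 FPKM in the 3 transgenic vehicle hearts, against 0.644 ± 0.170 FPKM in the 4 wild type hearts (SD). Camk2n2, an inhibitor of CaMKII, was at 1.42 ± 0.205 FPKM in transgenic vehicle hearts and 0.659 ± 0.271 FPKM in wild type hearts. Of the other 3 genes of the list, 1 rose, Pnck, a CaM kinase I gene named after its values were seen (0.47, limma adjusted p = 0.020), while Camkk2 at 0.11 and the inhibitor gene Camk2n1 at 0.07 were not called. Of the calmodulin genes, Calm3 fell by 0.45 (adjusted p = 0.011), while Calm2, at 0.12, was not called. The calmodulin-binding peptide gene Pcp4 was at 0 to 0.135 FPKM in transgenic vehicle hearts and 1.14 to 2.58 FPKM in wild type hearts. It passed the filter through wild type hearts alone, so this too is a description with no test.

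Of 11 tested genes of phosphatases and the maturation kinase, 3 rose and 3 fell, beside 20.3% and 15.7% of all genes. Ppm1e, a phosphatase gene whose product removes the activating phosphate of CaM kinases, was at 14.0 and 16.5 FPKM in JIB-04 hearts and 13.1 to 14.5 FPKM in transgenic vehicle hearts, against 2.75 to 2.94 FPKM in wild type hearts. The transgenic and wild type hearts lay far apart, and Ppm1e rose by 1.96 in transgenic vehicle hearts (limma adjusted p = 3.5e-06). The protein phosphatase 2A catalytic gene Ppp2ca rose by 0.64 (adjusted p = 4.5e-04). Phlpp1, whose product dephosphorylates PKC, fell by 0.46 (adjusted p = 0.0024), and the protein phosphatase 1 catalytic gene Ppp1ca fell by 0.37 (adjusted p = 0.019). With hearts scaled to equal totals Ppp1ca was at -0.15 (adjusted p = 0.28). The related catalytic gene Ppp1cb was at 78.0 to 111 FPKM in transgenic vehicle hearts, against 65.5 to 74.1 in wild type hearts. Ppp1cc, also of this phosphatase, was at 67.5 to 75.0 FPKM and 63.9 to 77.1 FPKM in these groups. Ppm1f, a further phosphatase gene, was at 7.90 to 10.4 FPKM in transgenic vehicle hearts, against 10.6 to 12.2 in wild type hearts. Of 10 tested anchors and PKC substrates, Akap6 rose by 0.68 (adjusted p = 0.0095), Akap13 rose by 0.40 (adjusted p = 0.013) and Sdpr fell by 0.54 (adjusted p = 4.9e-04).

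Downstream, 4 of 7 tested genes of class II histone deacetylases and MEF2 factors fell and none rose, with a median of -0.42. Over all genes, 15.7% were called lower and 20.3% higher. Mef2a fell by 0.58 (limma adjusted p = 5.1e-04) and Mef2c by 0.62 (adjusted p = 0.0017). Of 9 tested calcium cycling genes whose products CaMKII or PKC phosphorylate, 4 fell and 2 rose, with a median of -0.20. Tnni3, the cardiac troponin I gene, averaged 1918 ± 326 FPKM in the 3 transgenic vehicle hearts, against 3087 ± 359.5 FPKM in the 4 wild type hearts (SD), and fell by 0.64 (limma adjusted p = 8.2e-04). Pln, the gene of phospholamban, fell by 0.43 (adjusted p = 0.0014), a call lost with equal totals (-0.20, adjusted p = 0.14). Casq2, the gene of calsequestrin, rose by 0.50 (adjusted p = 0.0048), and Cacna1c, the gene of the L-type calcium channel pore, rose by 0.30 (adjusted p = 0.021), a call lost in 6 of 25 alternatives.

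Some cell type markers moved with the transgene as well. In transgenic vehicle against wild type hearts, 4 of 5 endothelial markers fell, with summed levels of 99.4 to 99.6 FPKM in JIB-04 hearts and 91.0 to 122 in transgenic vehicle hearts, against 166 to 178 in wild type hearts. Of 6 fibroblast markers 3 rose, with sums of 544 to 583 FPKM in JIB-04 hearts and 484 to 641 in transgenic vehicle hearts, against 249 to 313 in wild type hearts. Dcn alone gave 319 to 567 FPKM in transgenic vehicle hearts. In transgenic vehicle heart 3, Col1a1 (9.67 FPKM) and Lum (21.1) were below every wild type heart (10.9 to 15.8 and 35.5 to 39.9). Col1a2 (19.5) lay within the wild type range there, and Dcn, Tcf21 and Pdgfra lay above it. Of 7 cardiomyocyte markers 4 fell and 1 rose. Of all genes tested, 20.3% were called higher and 15.7% lower. Of 5 markers of smooth muscle and pericytes 2 fell, while Cspg4 was at 8.86 to 11.2 FPKM in transgenic vehicle hearts, against 3.06 to 4.56 in wild type hearts. Cnn1 reached the filter through transgenic hearts alone and Tnni2, a skeletal muscle marker, through wild type hearts alone. This selects them for a difference, so their calls are not counted. Ckm, the other tested skeletal muscle marker, was at 489 to 722 FPKM in transgenic vehicle hearts, against 1219 to 1416 in wild type hearts. Myh2 was at 0 in both JIB-04 hearts. No tested marker of macrophages (5), lymphocytes (1) or Schwann and neuronal cells (2) was called. Of these, S100b, a Schwann and neuronal marker, also reached the filter through wild type hearts alone. The part of these markers in the kinase values was not tested. In whole hearts, fewer cells of a type and less RNA per cell cannot be told apart.

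For each called member, the genes most like it over the 9 hearts were found by Pearson's r of log2(FPKM + 1). Camk2a was nearest to Tmem150c (r = 0.998) and Lrrc15 (0.997), and Camk1 to Laptm4b (0.996) and Uqcrc2 (0.995). Prkca was nearest to Tom1l2 (0.984) and Nkd2 (0.982), and Prkce to 4632428N05Rik (0.977) and Tmem245 (0.969). Prkd1 was nearest to Oxr1 (0.982) and Kcne1 (0.977), and Prkd2 to Rgl2 (0.988) and Rplp0 (0.986). These hearts fall into transgenic and wild type clusters, and the genes of a heart share its depth and scaling, so the values describe likeness only.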

How the data were processed

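Messenger RNA of 9 mouse hearts had been sequenced from non-directional libraries, per the labels' protocols. The submitters' processing notes name STAR 2.7.1a, Picard, GATK 4.1.2, Cufflinks 2.2.1 and GRCm38; no annotation release is named there. Per the file headers, the authors deposited log2 FPKM, 1 file per heart. The added constant was taken as 1, which no source states, since the lowest value was 0 in every file. Read totals were not used here, so no counting error can be given, and relative depth was estimated from the steps between low values.

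The 13487 of 43154 genes that reached 1 FPKM in 2 or more hearts were fitted on log2(FPKM + 1) by lmFit and eBayes with trend, from limma 3.58.1 under R 4.3.3, with group and day of collection as terms over all 9 hearts. P-values are two-sided and adjusted by Benjamini-Hochberg over all genes, with a threshold of 0.05. Effects within a day and their difference were taken from a model with 6 means, 1 for each group on each day, with single hearts in some combinations, assumed to vary like the others. The labels do not say more on the source of the hearts than 1 library each. Each p-value sets a difference against the residual spread between these hearts, moderated with information shared over genes. The script was tested on simulated data.

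The kinase genes and the lists were chosen with earlier results of these data known. All 10 kinase genes are named, and from each pathway list up to 2 genes called higher and 2 called lower, by smallest p. Other genes were named after their values were seen. These were Gnaq, Gna11, Adra1a, Calm2, Pnck, Camkk2, Camk2n1, Ppp1cb, Ppp1cc, Ppm1f and the genes that passed the filter through one genotype. Some genes of these pathways are not reported here and are in no list. Of the kinase genes, the deposited start equalled that of GENCODE M21 in 9 of 10, after adding 1. Alternatives were other pseudocounts, filters, scalings, variance models, sets of hearts, a replicate block and leaving out each heart.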

Additional observations from a re-analysis of the deposited data

Results flagged for a closer look

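Camk2a in wild type hearts was singled out because 1 of the 4 hearts stood apart. Wild type heart 4, from day 158, was at 27.8 FPKM and the others at 22.3 to 22.9 FPKM. The gap to the nearest heart was 0.885 of the whole range, above Dixon's critical value for 4 values. Of the 10 kinase genes checked in wild type hearts, 1 met this rule, and chance flags about 1 in 20 groups. The other groups held too few hearts to be checked. Without wild type heart 4, Camk2a still differed between transgenic vehicle and wild type hearts, by -1.26 (limma adjusted p = 1.5e-04).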

How the results depend on the processing

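Of the 6 members called for transgenic vehicle against wild type hearts, 2 were called with day 158 hearts alone, 3 with day 125 hearts alone, and 3 to 6 when 1 heart was left out (3 without transgenic vehicle heart 1). In these fits 1217, 1565 and 3348 to 5008 of all genes were called, against 4862. For JIB-04 against wild type hearts, 6 members became 1 at day 158, 3 at day 125 and 3 to 7 without 1 heart, and 4354 genes became 651, 1571 and 1720 to 5322. Fits of 1 day rest on fewer hearts. For JIB-04 against transgenic vehicle hearts no alternative called a member. The 1 gene called there became 0 with a pseudocount of 0.1, a filter of 5 FPKM or either day alone, 2 with no trend, 6 with no filter and 0 to 3 without 1 heart; it became 0 without JIB-04 heart 2 and transgenic vehicle heart 3 together, an alternative chosen after seeing the data. For day 158 against day 125, the 51 genes became 23 with no filter, 186 with scaling without mitochondrial and the 20 highest genes, 20 without those 2 hearts and 9 to 287 without 1 heart. For the difference of the transgenic effect between days, the 1 gene became 0 with a pseudocount of 0.1 or a filter of 5 FPKM, 186 with no filter, 6 with equal totals, 3 with no trend, 2 without those 2 hearts and 0 to 17 without 1 heart. The causes were not tested. No call changed direction under any alternative. Scaling to equal totals moved the median of all genes to 0.23, against 0.05, and 81.6% of calls were then higher, against 56.3%; Camk2a was then at -1.13 and Camk1 at -0.54. For JIB-04 against wild type hearts this split was 73.2%, against 54%.

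Whether the replicate numbers pair the hearts was not settled. Deviations of same-numbered hearts from their group means correlated from -0.19 to 0.43. Differences between the days were left in these deviations, so they cannot decide it. With the replicate number as a block in place of day, 4 members (Camk2a, Camk1, Prkca and Prkd2) and 4079 genes were called for transgenic vehicle against wild type hearts, and 6 members and 3416 genes for JIB-04 against wild type hearts, where Prkd1 lost its call (-0.58, adjusted p = 0.064) and Camk2d gained one (0.40, adjusted p = 0.041). For day 158 against day 125, the replicate number as a block beside the day term, chosen after seeing the data, called 3 genes, against 51, and no member. No paired analysis was possible for the difference of the transgenic effect between days because 6 means and the block leave no residual degrees of freedom.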
